A study of Mus musculus with 16 samples.

Results

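Proline, asparagine and glutamate metabolism is represented here by 8 enzymes, which were chosen by name from the 51060 genes of the transcript table: Aldh18a1 and Pycr1 for proline synthesis, Prodh for proline breakdown, Oat for the exchange between ornithine and proline, Asns for asparagine synthesis, Gpt2 and Got1 for the transfer of amino groups to and from glutamate, and Glul for glutamine synthesis. All 8 passed the filter on low counts. RNA was sequenced from brown adipose tissue (BAT) of 16 mice aged 7 weeks on a C57Bl/6J background that had eaten regular chow at ambient temperature. Every mouse carried the floxed Opa1 allele (Opa1-flox). The 8 OPA1 BKO mice (4 females, 4 males) also carried Cre under the Ucp1 promoter, which removes OPA1, a dynamin-like GTPase of the inner mitochondrial membrane, from thermogenic adipocytes. The 8 WT mice (4 females, 4 males) were littermates without Cre. The other cells of the tissue keep Opa1, and since whole tissue was sequenced, fewer cells of a type and less RNA per cell cannot be told apart. Mice are named by the library number in their label, S01 to S16.

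Proline is made from glutamate inside mitochondria. The enzyme encoded by Aldh18a1 reduces glutamate to pyrroline carboxylate, and the reductase encoded by Pycr1 turns that into proline. The way back uses proline dehydrogenase (Prodh), which passes electrons to the respiratory chain, and the dehydrogenase encoded by Aldh4a1, which returns glutamate. Glutamate is also the amino donor or acceptor of the transaminases, the ammonia acceptor of glutamine synthetase (Glul) and a product of asparagine synthetase (Asns), which takes its nitrogen from glutamine. Several of these genes are known targets of ATF4, the transcription factor of the integrated stress response, which binds as a dimer with C/EBP proteins to a composite element.

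The letters TGATGNAA of that composite element were looked for on both strands in the 250 bases before the RefSeq transcription start (GRCm38.p6), and were present before Asns, Pycr1 and Got1 and not before Aldh18a1, Prodh, Oat, Gpt2 or Glul. All 8 genes matched the promoter table by symbol. The 4 sequences are shown because Asns, Pycr1 and Got1 hold the letters and Aldh18a1, the member with the largest rise, does not. They are read 5′ to 3′ on the strand of the gene, which is the minus strand for each, and capitals mark the match. The GENCODE starts of Asns (7693254) and Pycr1 (120643769) lie inside the windows printed. The Asns match lies downstream of its GENCODE start, and the Pycr1 match lies upstream of its own.
Asns, chr6:7693210-7693459: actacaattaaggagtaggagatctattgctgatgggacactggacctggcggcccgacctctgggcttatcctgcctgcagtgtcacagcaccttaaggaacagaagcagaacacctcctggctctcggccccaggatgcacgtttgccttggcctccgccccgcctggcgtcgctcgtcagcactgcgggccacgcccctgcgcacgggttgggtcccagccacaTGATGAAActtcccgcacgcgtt
Pycr1, chr11:120643749-120643998: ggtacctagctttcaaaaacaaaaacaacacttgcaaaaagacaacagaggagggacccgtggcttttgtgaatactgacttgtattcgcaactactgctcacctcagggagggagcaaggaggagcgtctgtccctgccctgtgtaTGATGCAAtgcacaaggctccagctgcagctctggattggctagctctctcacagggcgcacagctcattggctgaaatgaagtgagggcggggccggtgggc
Got1, chr19:43524606-43524855: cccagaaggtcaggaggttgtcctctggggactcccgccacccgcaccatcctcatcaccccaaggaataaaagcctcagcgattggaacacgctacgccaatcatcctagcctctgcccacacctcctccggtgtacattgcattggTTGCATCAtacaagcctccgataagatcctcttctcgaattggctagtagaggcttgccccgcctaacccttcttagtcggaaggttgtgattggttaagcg
Aldh18a1, chr19:40588464-40588713: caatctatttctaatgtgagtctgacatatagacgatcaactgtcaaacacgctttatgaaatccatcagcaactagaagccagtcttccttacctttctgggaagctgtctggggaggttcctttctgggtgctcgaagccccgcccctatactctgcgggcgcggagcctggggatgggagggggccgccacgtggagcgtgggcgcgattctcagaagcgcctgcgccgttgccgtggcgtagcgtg
Of the 32851 promoters of the same length, 1134 (3.45%) held these letters on either strand. Among 33 other genes of amino acid metabolism with a promoter in the table, 1 did (Slc7a11, named for its match). In Asns the match TGATGAAA ended 15 bases before the RefSeq start, and in Pycr1 TGATGCAA ended 95 bases before it. In Got1 TTGCATCA, the same letters on the opposite strand, ended 94 bases before the RefSeq start. A match of letters is a description of the sequence and was not tested for binding.

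The first question was whether these enzymes differed between OPA1 BKO and WT BAT. Transcripts of 6 of the 8 rose (Aldh18a1, Pycr1, Got1, Gpt2, Asns and Oat), 1 fell (Glul), and Prodh did not pass the test. Of all 15632 genes tested, 20.8% rose and 20.2% fell at an adjusted p-value under 0.05 (quasi-likelihood test of edgeR on all 16 mice, sex in the model, p-values adjusted over all genes tested after Benjamini and Hochberg). The ranges of Aldh18a1, Pycr1 and Got1 in OPA1 BKO mice began above the highest WT mouse, as for 5.07% of all genes, and that of Glul ended below the lowest WT mouse, as for 4.89%. The median log2 fold change was 0.66 over the 8 enzymes and 0.01 over all genes tested. All directions are relative to TMM scaling: with library size alone the median gene lay 0.57 higher in OPA1 BKO mice and Prodh (0.41), Pycrl, Aldh4a1, Aldh5a1 and Slc1a3 turned positive, as Aspg and Gpt also did on TPM, whereas Glul and the 6 enzymes that rose kept their direction and call. Relative to the shifted median Prodh stood at -0.16.

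**Figure D1:**
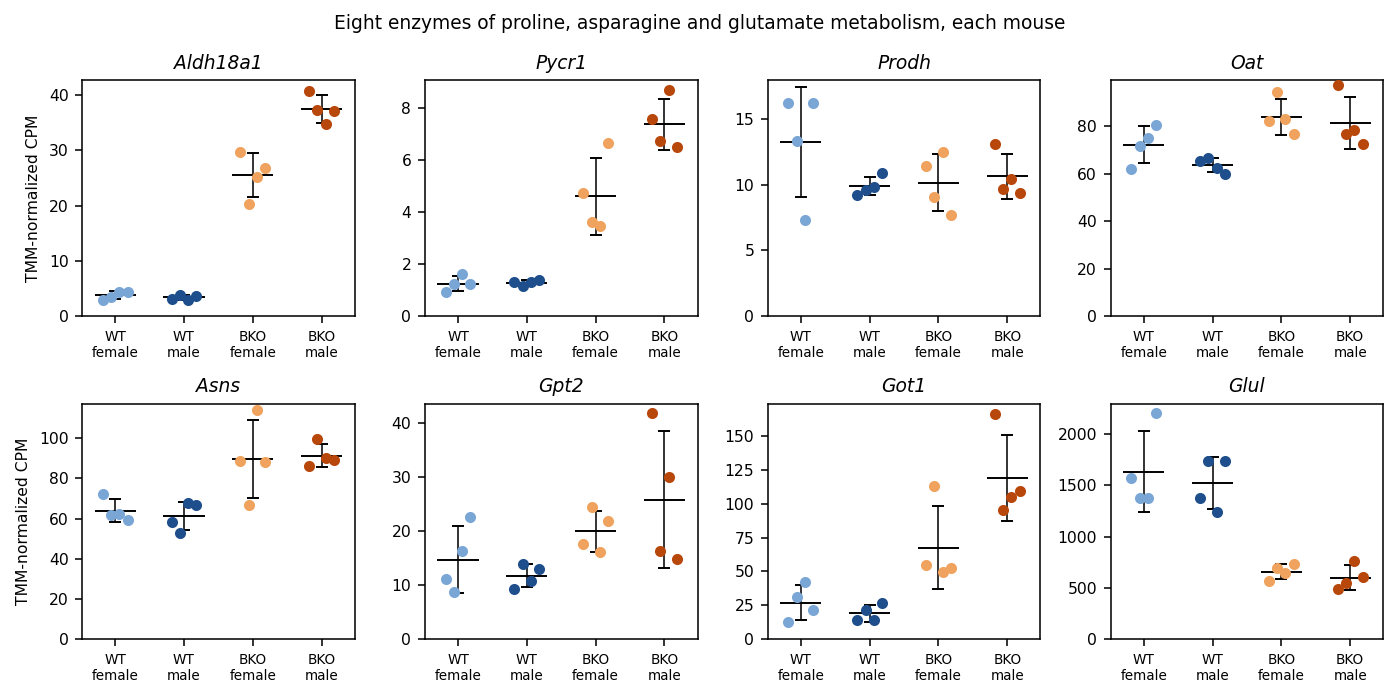
TMM-normalized CPM of the 8 enzymes in each mouse, by genotype and sex. Points are mice, long lines are means and short bars are 1 SD (n = 4 per group); Aldh18a1, Pycr1 and Got1 do not overlap between the genotypes and lie higher in OPA1 BKO, Glul lies lower, and Prodh overlaps.

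Aldh18a1, whose enzyme opens proline synthesis, rose the most of the 8. In WT mice it lay between 2.95 and 4.40 CPM (counts scaled to a common library size after TMM normalization), with a median of 3.48, from 39 to 89 counts per mouse. In OPA1 BKO females it was 29.7, 20.3, 25.2 and 26.8 CPM, and in OPA1 BKO males 40.8, 37.3, 34.8 and 37.1 CPM. The lowest OPA1 BKO mouse stood far above the highest WT mouse, and all OPA1 BKO males stood above all OPA1 BKO females. The fitted difference was 8.60-fold (log2 fold change 3.10, SE 0.14, adjusted p = 2.01e-10), and by log2 fold change the gene ranked 56 among the 3255 that rose. The processed pseudogene Gm15801 overlaps it on the same strand and held a mean of 81.6 counts in WT and 226 in OPA1 BKO mice; 0 of the 4142 31-base words of Aldh18a1 occur in other genes.

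Pycr1, the mitochondrial reductase that completes proline, was low in WT mice, at 0.908 to 1.62 CPM with a median of 1.27, from 16 to 26 counts. It was at 3.45 to 8.69 CPM with a median of 6.58 in OPA1 BKO mice, so that the lowest of them had more than the highest WT mouse. The difference was 4.59-fold (log2 fold change 2.20, SE 0.18, adjusted p = 1.12e-07). The cytosolic reductase Pycrl did not pass the test: its medians were 30.9 and 26.3 CPM (log2 fold change -0.22, 95% interval -0.40 to -0.03, adjusted p = 0.0558).

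Prodh, which takes the first step of proline breakdown, lay at 7.31 to 16.2 CPM in the WT group and at 7.66 to 13.1 CPM in the OPA1 BKO group, and the genotypes overlapped throughout. Its log2 fold change was -0.14, with a 95% interval of -0.48 to 0.19 (adjusted p = 0.495), an interval that does not reach a rise of the size of either synthesis enzyme. Aldh4a1, which follows Prodh, fell slightly, from a median of 195 to 162 CPM with overlap (log2 fold change -0.30, SE 0.10, adjusted p = 0.0310). That call was lost when any 1 of 5 mice was left out: without WT female S01, WT male S03, OPA1 BKO female S06, or OPA1 BKO males S12 or S16, the adjusted p-value was 0.0616, 0.0631, 0.0626, 0.0618 and 0.0649 in turn. Prodh2, which acts on hydroxyproline, had at most 7 counts in any mouse and was not tested.

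To set synthesis against breakdown without scaling one mouse to another, the TPM of 2 enzymes was divided within each mouse. Aldh18a1 to Prodh was between 0.149 and 0.353 (median 0.189) in WT mice and between 1.08 and 2.37 (median 2.02) in OPA1 BKO mice. Prodh thus exceeded Aldh18a1 in every WT mouse, and Aldh18a1 exceeded Prodh in every OPA1 BKO mouse. The mean log2 ratio differed by 3.10 (two-sided p = 0.000155 by exact permutation, the lowest value that groups of 8 allow; adjusted over 8 ratios, 0.000207). Pycr1 to Prodh moved from a median of 0.132 to 0.692, a log2 difference of 2.27, and stayed below 1 in every mouse. Against Aldh4a1, the log2 differences were 3.16 for Aldh18a1 and 2.33 for Pycr1. None of these ratios overlapped between genotypes, and each had the same exact p-value of 0.000155.

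**Figure D2:**
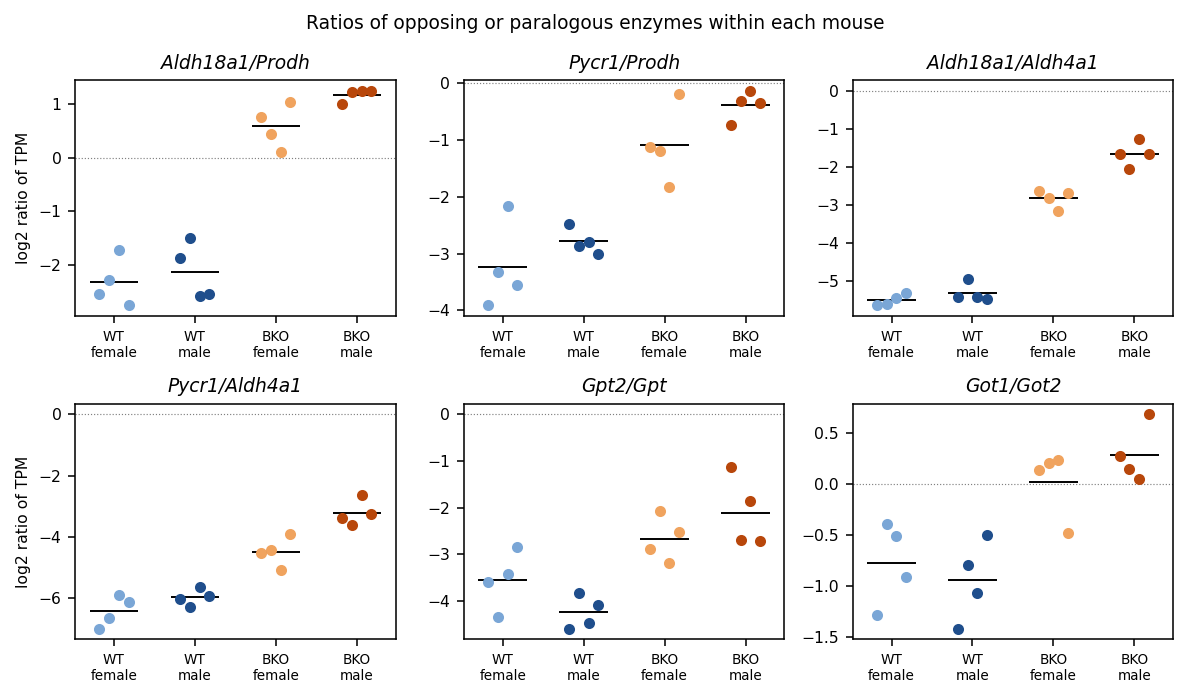
Log2 ratio of the TPM of 2 enzymes within each mouse, for 6 pairs, with points for mice, lines for the mean of 4 mice and a dotted line at equal TPM. Aldh18a1/Prodh lies below 0 in WT and above 0 in OPA1 BKO mice; Gpt2/Gpt and Got1/Got2 overlap between genotypes.

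Aldh18a1 has 2 main coding transcripts in the annotation, which differ by 6 bases inside the coding sequence, and the 2 stretches are shown because the enzymes they encode are known to differ in their inhibition by ornithine, the short form being the sensitive one. Capitals mark the bases that the long form has in addition, at positions 960 to 965 of its transcript.
Aldh18a1-201, long form: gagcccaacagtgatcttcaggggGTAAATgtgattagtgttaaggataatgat
Aldh18a1-207, short form: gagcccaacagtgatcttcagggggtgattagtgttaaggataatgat
The long form was estimated at 0 to 1.20 TPM (median 0.705) in WT and 9.34 to 15.9 TPM (median 10.9) in OPA1 BKO mice. The short form lay between 0.0335 and 5.65 TPM (median 3.26) in OPA1 BKO mice, and the long form held 64.5 to 99.7% of the sum of both there. In all 8 OPA1 BKO mice the long form exceeded the short one. In WT mice the counts were too few to split, with shares from 0 to 100%. The long transcript also has 94 more bases at its 5′ end, so the split rests on both differences, and no test was made on it.

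Oat, which exchanges ornithine with the precursor shared by proline synthesis and breakdown, rose by a small amount, from 59.8 to 80.4 CPM (median 66.0) in WT to 72.7 to 97.5 CPM (median 80.2) in OPA1 BKO mice, with overlap (log2 fold change 0.29, SE 0.07, adjusted p = 0.00492). Odc1, which takes ornithine to polyamines, rose from a median of 54.8 to 72.1 CPM without overlap (log2 fold change 0.56, SE 0.13, adjusted p = 0.00207). By sex, edgeR called this rise in males (log2 fold change 0.93, adjusted p = 4.13e-05) and not in females (0.19, adjusted p = 0.315). The difference between the sexes did not pass the edgeR test (interaction adjusted p = 0.0761). Arg1, Arg2 and Otc, which make or use ornithine, did not pass the filter on low counts.

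Asns, which makes asparagine from aspartate and glutamine, rose from 53.0 to 72.2 CPM (median 61.9) in WT to 66.9 to 114 CPM (median 89.1) in OPA1 BKO mice. In 7 of 8 OPA1 BKO mice it lay above every WT mouse; the exception was female S06 at 66.9 CPM. The difference was 1.44-fold (log2 fold change 0.53, SE 0.09, adjusted p = 0.00025). Of the enzymes that break asparagine down, the asparaginase gene Aspg fell from a median of 331 to 192 CPM with overlap (log2 fold change -0.62, SE 0.16, adjusted p = 0.00556), and Asrgl1 had medians of 17.8 and 19.8 CPM (log2 fold change 0.17, adjusted p = 0.0844).

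Among the transaminases, Got1, the cytosolic aspartate aminotransferase, rose 3.93-fold (log2 fold change 1.97, SE 0.30, adjusted p = 9.36e-05). It lay at 12.5 to 42.5 CPM (median 21.6) in WT mice, at 54.7, 113, 49.5 and 52.9 CPM in OPA1 BKO females and at 166, 95.5, 105 and 109 CPM in OPA1 BKO males. The highest WT mouse, female S09, was below the lowest OPA1 BKO mouse, female S10. Its mitochondrial counterpart Got2 rose 1.00 on the log2 scale (SE 0.21, adjusted p = 0.00145), from a median of 49.3 to 104 CPM with overlap. By sex, edgeR called Got2 in males (log2 fold change 1.48, adjusted p = 0.000498) and not in females (0.53, adjusted p = 0.166). Got1 to Got2 within a mouse went from a median of 0.553 to 1.13 (log2 difference 1.02, exact permutation p = 0.000311, adjusted 0.000355), with overlap.

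Gpt2, the mitochondrial alanine aminotransferase, rose 1.72-fold with a wide spread, from 8.69 to 22.7 CPM (median 12.1) in WT to 14.9 to 41.9 CPM (median 19.7) in OPA1 BKO mice (log2 fold change 0.78, SE 0.24, adjusted p = 0.0153). The cytosolic form Gpt went the other way, from 69.5 to 104 CPM (median 88.2) to 45.1 to 66.9 CPM (median 55.1), with every OPA1 BKO mouse below every WT mouse (log2 fold change -0.65, SE 0.10, adjusted p = 6.54e-05). Gpt2 to Gpt within a mouse rose from a median of 0.0639 to 0.163 (log2 difference 1.52, exact permutation p = 0.000466, adjusted 0.000466), and Gpt remained the more abundant of the pair in every mouse. Psat1, the transaminase of serine synthesis, had the largest rise of the other genes listed, from a median of 4.95 to 29.0 CPM without overlap (log2 fold change 2.71, SE 0.23, adjusted p = 2.53e-07).

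Skeletal muscle markers differed widely between mice. Within each sex of the OPA1 BKO mice, Got1, Gpt2 and Oat were highest in the mouse that had most of these markers. The 10 markers (Acta1, Ckm, Myh4 and others, all detected) summed to 20.7 to 6820 CPM (median 1530) in WT and 3.5 to 16400 CPM (median 2690) in OPA1 BKO mice. Their median log2 fold change was 1.44. Between the genotypes edgeR called 0 of the 10, with 0 at an unadjusted p-value under 0.05, and DESeq2 called 0. With so wide a spread between mice, the lack of calls does not show that muscle content was equal. The 2 highest were OPA1 BKO male S04 and female S06, at 16400 and 13100 CPM. Leaving them out removed mice from OPA1 BKO alone, and the highest mouse left had 4670 CPM in OPA1 BKO and 6820 CPM in WT. Without S04 and S06 Got1 rose (log2 fold change 1.71, edgeR adjusted p = 0.000476), and the Gpt2 call was lost (log2 fold change 0.56, edgeR adjusted p = 0.0546). Got2 was also highest in S04 among OPA1 BKO males (180 CPM) and in S06 among OPA1 BKO females (123 CPM). Without the pair its log2 fold change was 0.81 (edgeR adjusted p = 0.00652). Oat was 97.5 CPM in S04 and 94.5 CPM in S06. Without the pair the Oat log2 fold change was 0.21 (edgeR adjusted p = 0.0204), against 0.29 in all mice. Female S10, with 3.5 CPM of muscle markers, had 49.5 CPM of Got1, and the highest WT mouse, S09, had 42.5 CPM. The part of skeletal muscle in the results of these genes was not tested. For the other members the values without the pair were 3.14 for Aldh18a1, 2.25 for Pycr1, 0.60 for Asns, -0.17 for Prodh and -1.29 for Glul. Their calls held, so that with Got1 and Oat 5 members rose and 1 fell.

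**Figure D3:**
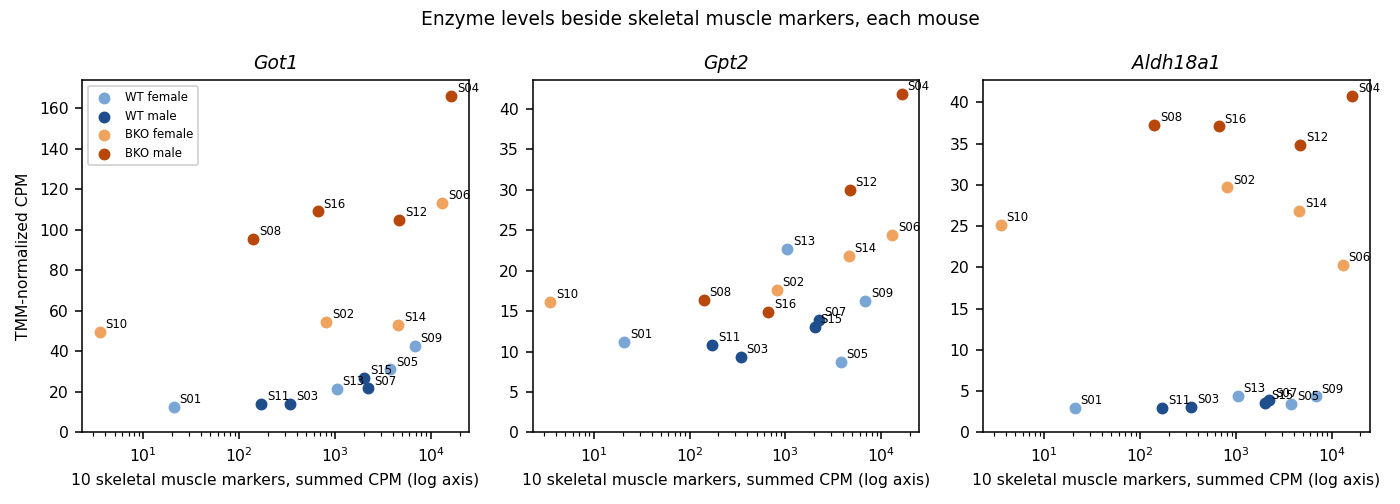
TMM-normalized CPM of Got1, Gpt2 and Aldh18a1 in each mouse against the summed CPM of 10 skeletal muscle markers on a log axis, with 1 point per mouse. S04 and S06 lie farthest right. Got1 of S10, at the far left, is 49.5 CPM, against 42.5 CPM in the highest WT mouse. Aldh18a1 separates the genotypes along the whole axis.

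Glul, glutamine synthetase, was the member with the highest level and the only one that fell. It lay at 1240 to 2210 CPM (median 1480) in WT and 486 to 768 CPM (median 625) in OPA1 BKO mice, without overlap. The fitted level in OPA1 BKO mice was 0.399 times that in WT mice (log2 fold change -1.32, SE 0.12, adjusted p = 5.97e-07). Of its 31-base words, 20.4% also occur in other genes, chiefly the pseudogene Glns-ps1, which held a mean of 7.09 counts in WT and 3.04 in OPA1 BKO mice against 2.51e+04 and 1.35e+04 for Glul. Glud1, which oxidizes glutamate in mitochondria, had a log2 fold change of 0.00 (95% interval -0.17 to 0.18, adjusted p = 0.977).

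Levels of the 8 genes can be compared with each other as TPM, which is scaled by transcript length. In WT mice Glul stood first at a median of 511 TPM, followed by Asns at 32.5, Oat at 27.4, Got1 at 10.6, Prodh at 5.17, Gpt2 at 3.11, Aldh18a1 at 1.20 and Pycr1 at 0.604 TPM. Asns and Oat overlapped, as did Got1 with Prodh, Prodh with Gpt2, and Aldh18a1 with Pycr1, while Glul stood clear of Asns, Oat of Got1, and Gpt2 of Aldh18a1. In OPA1 BKO mice the order was Glul at 406, Got1 at 90.6, Asns at 85.1, Oat at 67.2, Aldh18a1 at 18.2, Gpt2 at 10.1, Prodh at 8.87 and Pycr1 at 6.18 TPM. Aldh18a1 thus went from below Prodh and Gpt2 to above both by median, and Got1 from below Oat to above it by median. The ranges of these genes overlapped in OPA1 BKO mice. Got1 stayed below Oat in OPA1 BKO females S02, S10 and S14, and Gpt2 exceeded Aldh18a1 in S04 and S06. TPM is not suited to comparing the genotypes, because transcripts of the mitochondrial genome held 31.6 to 44.8% of the TPM in WT mice but 8.28 to 15.1% after OPA1 loss, and the median gene lay 0.93 higher in OPA1 BKO mice on the log2(TPM + 0.1) scale.

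**Figure D4:**
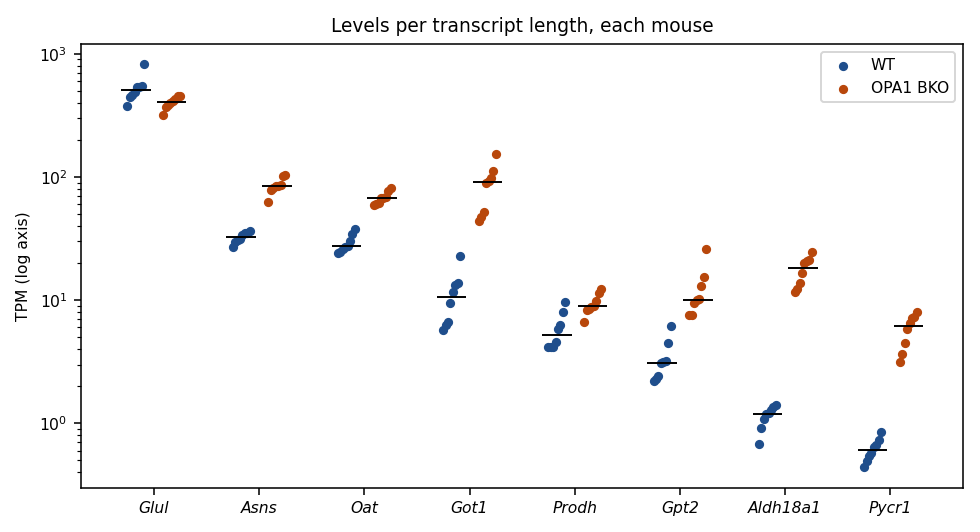
TPM of the 8 enzymes in each mouse on a log axis, ordered by WT median; points are mice and lines are medians of 8. Glul is highest in both genotypes and overlaps between them on this scale. Aldh18a1, Got1 and Pycr1 show the widest gaps. The median gene lay higher in OPA1 BKO mice on TPM, so gaps between genotypes include that shift.

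By sex, 4 of the 8 enzymes rose in females (Aldh18a1, Pycr1, Asns and Got1) and 6 rose in males, where Oat and Gpt2 passed as well; Glul fell in both. Of all genes tested, 8.96% rose and 9.03% fell in females, and 17.9% rose and 16.9% fell in males. The effect on Aldh18a1 was 2.75 in females and 3.48 in males on the log2 scale, that on Pycr1 1.88 and 2.52, and that on Got1 1.33 and 2.63. Female and male effects on Glul were -1.31 and -1.34. The difference between the female and male effects was called for 0 of the 8 enzymes by edgeR, with 2 at an unadjusted p-value under 0.05 (Aldh18a1 and Got1), and for 0 by DESeq2, against 0.115% of all genes tested by edgeR. The smallest adjusted p-value of the interaction was 0.13, for Aldh18a1, whose effect was larger in males by 0.73 (SE 0.20). Between WT females and WT males edgeR called 0 of the 8, with 0 at an unadjusted p-value under 0.05 and adjusted p-values from 0.347 upward; DESeq2 called 0 of them and gave no adjusted p-value for 1.

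The other genes of amino acid metabolism that surround these enzymes were read from a list of 46, of which 39 passed the filter on low counts. Among these, 15 rose, 5 fell and 19 did not pass the test, with 5 wholly above and 1 wholly below the WT range and a median log2 fold change of 0.29. Over all genes tested the shares were 20.8% higher, 20.2% lower, 5.07% wholly above and 4.89% wholly below. All 3 genes of glutathione synthesis rose, led by Gss, which joins the last amino acid, from a median of 28.5 to 55.9 CPM without overlap (log2 fold change 0.86, SE 0.09, adjusted p = 1.3e-06). Of 11 plasma membrane transporters 5 rose and 1 fell. Slc3a2, the heavy chain shared by several amino acid exchangers, rose from a median of 68.2 to 182 CPM without overlap (log2 fold change 1.28, SE 0.17, adjusted p = 2.86e-05), and Slc1a3, a carrier of glutamate and aspartate, fell from 87.6 to 69.9 CPM with overlap (log2 fold change -0.50, SE 0.10, adjusted p = 0.00123). Of the 6 enzymes that use glutamine or its derivatives in nucleotide synthesis, 3 rose, with Ctps, which makes CTP, the largest (log2 fold change 1.18, SE 0.20, adjusted p = 0.000183). Aldh5a1, the last enzyme of the GABA shunt, fell from a median of 41.2 to 32.2 CPM (log2 fold change -0.35, SE 0.08, adjusted p = 0.0022). Of the 4 mitochondrial carriers of aspartate or glutamate, edgeR and DESeq2 called 0, and 0 had an unadjusted edgeR p-value under 0.05. Their log2 fold changes were 0.93 for Slc25a12, 0.53 for Slc25a13, 0.21 for Slc25a18 and 0.05 for Slc25a22, and that of Slc25a12 was -0.14 without S04 and S06.

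**Figure D5:**
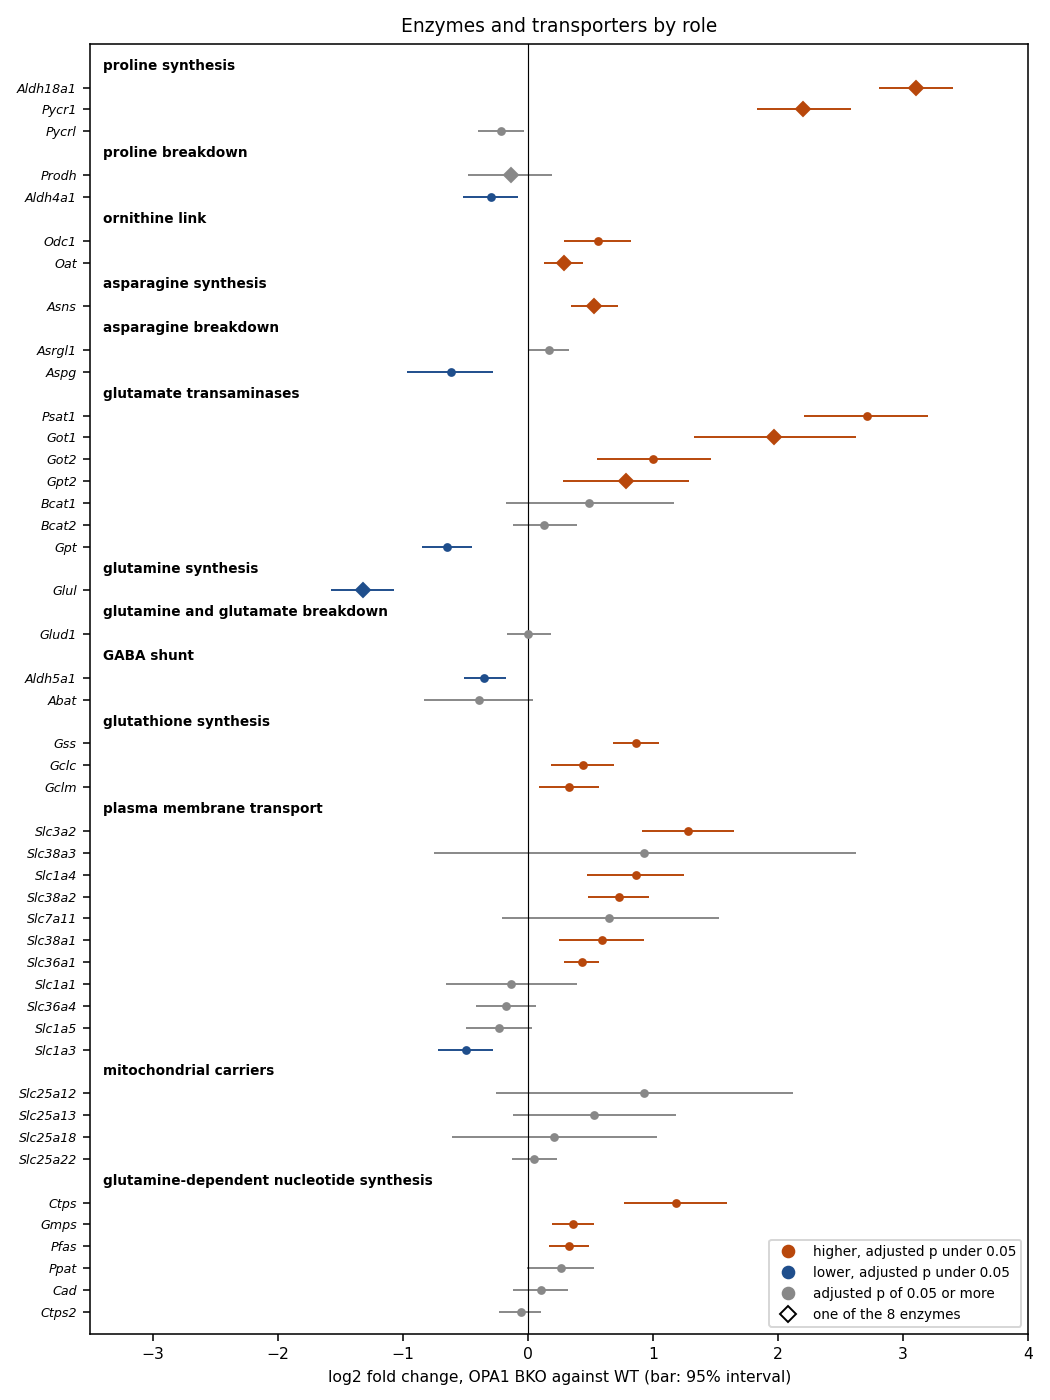
Log2 fold change of OPA1 BKO against WT mice with its 95% interval for the 8 enzymes (diamonds) and 37 of the 39 other tested genes (circles), grouped by role. Colours mark genes that rose, fell or did not pass at an adjusted p-value of 0.05. The points farthest right are Aldh18a1, Psat1 and Pycr1, and the point of Glul lies farthest left.

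Opa1 itself lay at 152 to 210 CPM in WT and 17.9 to 36.9 CPM in OPA1 BKO mice, and Atf4 rose (log2 fold change 1.26). Total estimated counts ranged from 13607283 to 23114534 per mouse. In other marker lists some genes were called between genotypes: 10 brown adipocyte markers summed to 15000 to 22400 CPM in WT and 8920 to 14600 CPM in OPA1 BKO mice (4 fell, 2 rose), 10 macrophage markers to 103 to 157 and 139 to 546 CPM (8 rose), 5 fibroblast and preadipocyte markers to 405 to 660 and 463 to 988 CPM (4 rose), 5 endothelial markers to 812 to 1050 and 665 to 850 CPM (3 fell), and 7 lymphocyte markers to 4.70 to 9.53 and 3.10 to 5.82 CPM (3 fell). No marker was at 0 in all mice. The part of these cell types in the results of the 8 enzymes was not tested.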

How the data were processed

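RNA of BAT from 16 mice was sequenced after stranded preparation of polyadenylated transcripts. The authors quantified the reads with kallisto 0.45.0 (mm10, per the labels) and deposited, for each transcript and mouse, an estimated count without normalization and a TPM, divided by effective length and scaled to 1 total per mouse. The use of strand in that step is not given in the sources used here, so reads of Prodh and of Dgcr6 on the opposite strand may not be told apart, and the same holds for Glul and Teddm2. Oat and Fgfr2 overlap on the same strand.

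Deposited estimated counts and TPM were summed per gene through GENCODE M21 identifiers (GRCm38). Of 135308 transcripts 133284 matched, and the 2024 others, with 0.483 to 0.73% of the counts, were left out. Counts were rounded, filtered with filterByExpr (minimum count 10, minimum total 15, 4 groups; 15632 genes left), scaled by TMM and compared by the quasi-likelihood test of edgeR 4.0.16 (R 4.3.3) with sex as a covariate; effects by sex and the interaction came from a model with 4 group means. Benjamini-Hochberg adjustment ran over the 15632 genes, and a call required an adjusted p-value under 0.05. The SE is the log2 fold change divided by the square root of the F statistic. Ratios within a mouse used TPM with 0.1 TPM added to both genes and exact two-sided permutation tests, adjusted over 8 ratios. Depth per mouse is given with the results, and the fewest counts behind a member were 16 (Pycr1); counting error is a larger part of the spread at such counts.

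The members and lists were chosen with earlier results of these data known. The named genes are the members, a fixed set of paralogues and opposing enzymes, and in each further group the called genes with the largest rise and fall; the mitochondrial carriers, Slc7a11 and genes without enough counts are named because they are few. Alternatives were DESeq2 1.42.0, RLE factors, library size alone, mitochondrial transcripts left out, other filters, counts scaled from TPM, a model without sex, limma 3.58.1 on log2 TPM, and leaving out mice. Within each group no library was a copy of another: in 24 pairs the squared differences exceeded counting noise 22.7 to 124 times. The labels name no pairs, litters or batches. Promoters came from RefSeq. Of the genes and ratios that these rules take, 4 genes and 2 ratios are not reported here.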

Additional observations from a re-analysis of the deposited data

Results flagged for a closer look

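In each group of 4 mice the highest and lowest value of the 8 enzymes and the 6 ratios was compared with the rest (56 groups), and 3 stood apart; chance alone sets about 1 in 20 groups apart. Got1 in OPA1 BKO female S06 was 113 CPM against 49.5 to 54.7 CPM in the other 3 OPA1 BKO females; this mouse also had 13100 CPM of summed skeletal muscle markers, against 3.5 to 4560 CPM in the others. The ratio of Aldh18a1 to Aldh4a1 in WT male S07 was 0.0328, against 0.0228 to 0.0235 in the other WT males. The ratio of Aldh18a1 to Prodh in OPA1 BKO male S04 was 1.99, against 2.34 to 2.37 in the other OPA1 BKO males, still above every WT mouse.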

How the results depend on the processing

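In every alternative for the test of all 16 mice, and with any 1 mouse left out, Aldh18a1, Pycr1, Got1, Gpt2, Asns and Oat rose and Glul fell. Without S04 and S06 Gpt2 was lost (log2 fold change 0.56, adjusted p = 0.0546); there Aldh4a1 (-0.28, 0.0687) was lost too, and Slc25a12 turned to -0.14. Scaling sets the level of all genes. With library size alone the median gene lay 0.57 higher in OPA1 BKO mice, 10869 genes rose and 373 fell, and of the other listed genes 32 rose and 0 fell (edgeR); log2 fold changes turned for Prodh (0.41, adjusted p = 0.0391), Pycrl (0.33), Aldh4a1 (0.26), Aldh5a1 (0.21) and Slc1a3 (0.06). On log2(TPM + 0.5) with limma the median gene lay 0.87 higher, 11882 rose and 103 fell, the list gave 32 and 0, and Prodh (0.67), Pycrl (0.73), Aldh4a1 (0.65), Aspg (0.26), Gpt (0.29), Aldh5a1 (0.57) and Slc1a3 (0.47) turned. On log2(TPM + 0.1) it lay 0.93 higher, 11856 rose and 102 fell, the list gave 32 and 0, and Prodh (0.71), Pycrl (0.74), Aldh4a1 (0.66), Aspg (0.26), Gpt (0.30), Aldh5a1 (0.60) and Slc1a3 (0.48) turned. Relative to those medians all of these were again below 0, as in the TMM fit, and Glul lay between -1.34 and -1.23. Without the term for sex Glud1 was 0.00, and the Aldh4a1 call was lost without the filter and without that term (adjusted p = 0.112 and 0.138). Leaving out 1 mouse gave -0.03 to 0.04 for Glud1, -0.05 to 0.40 for Slc25a18 and -0.01 to 0.09 for Slc25a22. Pycrl passed with DESeq2 (adjusted p = 0.0485) and without WT male S07 (0.0192), WT female S09 (0.0293), OPA1 BKO female S10 (0.0237) or OPA1 BKO male S12 (0.0315), and Asrgl1 without S07 (0.0383). The 6 ratios kept their direction in each alternative and their call in each that was tested. No paired analysis was possible because the labels name no pairs. At 16 to 26 WT counts, Pycr1 levels in single WT mice are imprecise. Other causes were not tested.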

Other observations

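The pattern over the 16 mice most like that of each enzyme was sought among 13597 genes (mean CPM of 1 or more) as the smallest mean absolute difference between log2 CPM values centred on the WT mean. The nearest genes were Stbd1 (0.24) and Map1b (0.26) for Aldh18a1, Ccdc3 (0.23) and Cdca7l (0.24) for Pycr1, and Mboat1 (0.31) and Kcnj11 (0.34) for Got1. For Glul they were Rgcc (0.16) and H6pd (0.16), for Asns Clpb (0.11) and Gnao1 (0.11), and for Oat Asb3 (0.06). For Prodh they were Cryz (0.18) and Thtpa (0.18), and for Gpt2 Dclk1 (0.24) and Rhbdl3 (0.24). All values are on the log2 scale, and the genes share libraries and depth.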
